A study of Mus musculus with 18 samples.

Results

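Snai1 and the genes around it that switch epithelial cells towards a mesenchymal state were followed under ligands of nuclear receptors in the NaF line of mouse mammary carcinoma cells. The set was chosen by name and holds 10 genes: the transcription factors Snai1, Snai2, Zeb1, Zeb2 and Twist1, the adhesion and cytoskeleton genes Cdh1, Cdh2 and Vim, the ligand gene Tgfb1 and its receptor gene Tgfbr1. Of these, 9 had a probe set of their own (a group of array probes read as 1 value) among 22180 genes tested. Both probe sets that cover Zeb2 also carried a further symbol, Zeb2os or Mir5129, so Zeb2 is not analysed here. The 9 genes held 12 probe sets. Where a gene had several, the brightest on average stood for it.

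The data were 18 Affymetrix arrays in 6 groups of 3. The cells of 4 groups were taken out of full medium (DMEM with 10% FBS) and kept in DMEM with 10% charcoal-treated FBS, which is stripped of small lipophilic molecules, for 48 hours before the ligand was added. These groups were a charcoal-serum control and cells given retinoic acid, TTNPB or GW1516, each at 1 µM for 6 hours. The remaining 2 groups stayed in full medium, as a control or with palmitate at 10 µM for 6 hours, so dose and serum both differ between palmitate and the other ligands. Retinoic acid is the natural ligand of the retinoic acid receptors, TTNPB is a synthetic agonist of them, GW1516 is a synthetic agonist of PPARδ and palmitate is a saturated fatty acid. All groups are of the same cell line, with no transgene named in the labels. Whether the replicates were separate cultures is not given in the sources used here, so the error behind each p-value is array-to-array spread, which may be technical.

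Epithelial cells hold to each other through E-cadherin, the product of Cdh1. In an epithelial-mesenchymal transition, SNAI1, SNAI2, the ZEB proteins and TWIST1 lower its expression, N-cadherin (Cdh2) can take its place, and vimentin (Vim) fills the cytoskeleton. SNAI1 and SNAI2 are zinc finger repressors that bind E-boxes, short DNA motifs that also occur in the promoter of Snai1 itself. TGF-β1 (Tgfb1), acting through the receptor TGFBR1 and SMAD proteins, is a known inducer of Snai1. In mammary carcinoma this switch is known for its link to invasion, and retinoids are known as differentiating agents.

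The 250 bases before the start of Snai1 are shown because Snai1 is the member on which the results turn, with its E-box in capitals. They are read on the + strand at chr2:167537945-167538194 of GRCm38.p6, from RefSeq.
Snai1: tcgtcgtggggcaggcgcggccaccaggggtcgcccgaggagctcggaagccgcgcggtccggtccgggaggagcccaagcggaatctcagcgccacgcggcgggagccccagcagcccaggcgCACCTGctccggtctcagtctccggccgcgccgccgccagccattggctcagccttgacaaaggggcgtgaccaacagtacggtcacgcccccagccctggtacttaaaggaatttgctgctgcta
The E-box search looked for CAGGTG or CACCTG, which are the same motif on opposite strands. It found 1 match, which starts 126 bases before the gene start, and such a match occurs in 17.2% of 32851 promoter windows of this length. A full receptor half-site, AGGTCA or TGACCT, was not in the window and occurs in 14.0% of windows. Its shorter core, GGTCA or TGACC, which also lies inside the full motif, matched at 58 and 45 bases before the start and occurs in 35.2% of windows. These matches describe letters only. The windows of Vim, Tgfb1, Tgfbr1 and Twist1 held neither the E-box nor the full half-site. No windows were read for Snai2, Zeb1, Cdh1 and Cdh2, so whether these hold an E-box is not known here. The shorter core was also in the windows of Tgfb1 (233 bases before the start) and Tgfbr1 (210 and 121, before separate starts). It was not in those of Vim and Twist1.

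Values are log2 expression values as deposited. A background level was taken per group as the 95th percentile of mean levels over 1394 genes of olfactory and vomeronasal receptors, which mammary cells are not known to use. In charcoal serum it was 1.31 for the controls, 1.15 for retinoic acid, 1.29 for TTNPB and 1.30 for GW1516, and in full medium 0.59 for the controls and 0.63 for palmitate. The arrays of the 2 sera had different distributions, with medians of 1.06 to 1.32 in charcoal serum and 0.47 to 0.55 in full medium, so levels were not compared between sera. GW1516 replicate 3 and palmitate replicate 2 stood apart from their groups. The mean distance from the group mean over all genes was 0.231 and 0.113 on these arrays, against 0.094 to 0.145 on the other charcoal-serum arrays and 0.0816 to 0.0934 on the other full-medium arrays. Values without them are given beside those member differences given below that they move by over 1.5 times.

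The label of the cells was checked on marker genes in the charcoal controls. Of 10 luminal mammary markers 7 lay above background. The luminal keratin gene Krt18 was at 7.99, and Krt8 at 1.68 and Epcam at 1.51 were close to background. Only 1 of 6 basal markers lay above background (Trp63, 1.53), with 2 of 9 fibroblast markers, 2 of 5 leukocyte markers (Cd68, 1.82, and Ptprc, 1.46) and 0 of 4 adipocyte markers. Of the fibroblast markers, Pdgfra was at 4.88, well above background, and Pdgfrb, at 1.31, was level with it (1.31). Of 5 endothelial markers only Cdh5, VE-cadherin, was above background. In such bulk samples, fewer cells of a type and less RNA per cell cannot be told apart.

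Snai1 rose with retinoic acid, and it was the only member whose change from its control passed the test in any ligand comparison. A change was called when its limma p-value, adjusted by the Benjamini-Hochberg method over all 22180 genes, was below 0.05. By this rule 1 of 9 members was called for retinoic acid, against 5.29% of all genes (3.82% higher and 1.47% lower). The share of 1 in 9 rests on a single gene and says nothing about the members as a group. TTNPB, GW1516 and palmitate called 0 of 9 members, against 1.26%, 2.57% and 0.681% of all genes. At an unadjusted p below 0.05 the same limma fit gave 3 members for retinoic acid, 3 for TTNPB, 1 for GW1516 and 0 for palmitate. The shares of all genes above are for the adjusted p and cannot be set against these counts. The weakest of these members ranked 2232 of 22180 genes with retinoic acid (Cdh1), 2148 with TTNPB (Tgfbr1) and 3101 with GW1516 (Tgfb1). At least that many genes thus passed the unadjusted cut. The comparisons of retinoic acid, TTNPB and GW1516 use the same 3 control arrays, so their values are not independent of each other.

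Snai1 (probe set 17379922, Entrez 20613) lies at chr2:167538195-167542814. Its log2 level in the charcoal controls was 4.92, 5.07 and 4.79 in replicates 1 to 3. With retinoic acid it was 5.87, 6.00 and 5.74. Every retinoic acid array was above every control array, with a gap between the groups wider than the range within either. The mean moved from 4.93 ± 0.14 to 5.87 ± 0.13 (SD, n = 3 each), a difference of 0.95 with an SE of 0.23 and a 95% interval of 0.45 to 1.44. This is 1.93-fold (1.37 to 2.71), with an adjusted p of 0.0227 by limma. The call was near the threshold. With fewer arrays it was lost when charcoal control replicate 1 (adjusted p = 0.0676), charcoal control replicate 3 (0.0818), retinoic acid replicate 1 (0.0776) or retinoic acid replicate 2 (0.106) was left out, while the difference stayed between 0.88 and 1.02. Without GW1516 replicate 3 and palmitate replicate 2 together, which take no part in this difference but add to the shared variance, its adjusted p was 9e-05.

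With TTNPB, Snai1 was at 5.09, 5.29 and 5.40, all above the controls by a small margin. The mean of 5.26 ± 0.16 (SD, n = 3) was 0.33 above the controls, with a 95% interval of -0.16 to 0.83 and an adjusted p of 0.694 by limma. With GW1516 the values were 4.70, 4.97 and 4.18, which overlap the controls, and replicate 3 was the lowest. The mean difference of -0.31 (-0.80 to 0.18, adjusted p = 0.574 by limma) was -0.09 without replicate 3. In full medium Snai1 was at 4.04, 4.32 and 4.46 in the controls and at 4.66, 3.70 and 4.83 with palmitate. The palmitate arrays lay on both sides of the controls, and replicate 2 was the lowest of all. The difference was 0.13 (-0.37 to 0.62, adjusted p = 1 by limma), and 0.48 (adjusted p = 0.665) without that replicate. The level of Snai1 thus ordered the charcoal groups as retinoic acid, TTNPB, control and GW1516. No neighbours in that order differed past the test.

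**Figure D1:**
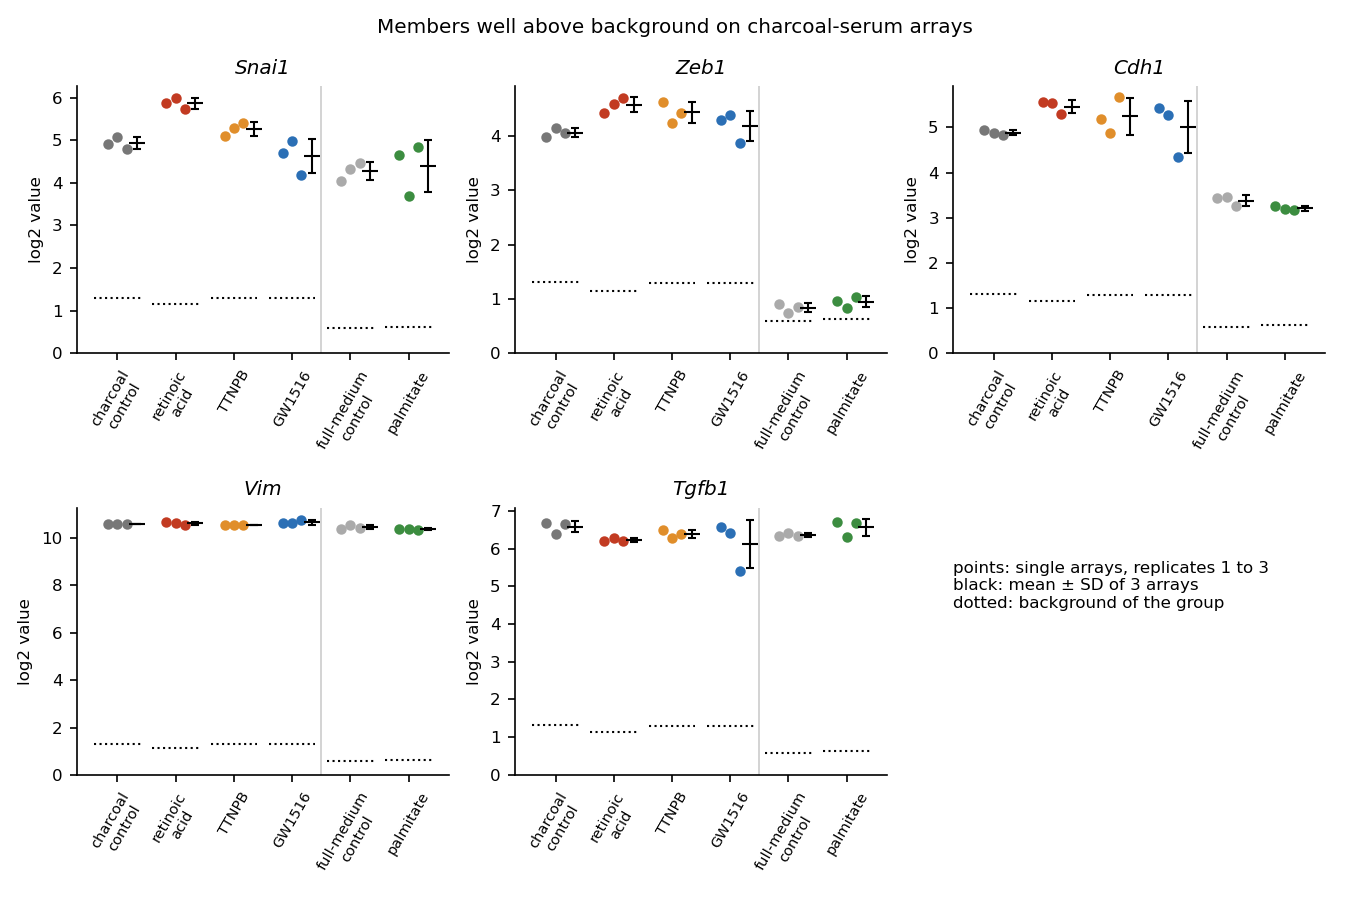
Log2 level (vertical axis) of the members measured above background, by group (horizontal axis), with 1 point per array, a bar at the group mean and the background level of each group. The 3 retinoic acid arrays of Snai1, at 5.74 to 6.00, lie above all other arrays, while Vim stays between 10.32 and 10.78 throughout.

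Zeb1, a zinc finger repressor of Cdh1 that is also linked to Snai1, was well above background in charcoal serum. It was at 3.98, 4.14 and 4.05 in the controls and at 4.42, 4.58 and 4.70 with retinoic acid. The groups did not overlap, but the difference of 0.51 (95% interval 0.20 to 0.82) had an adjusted p of 0.0521 by limma and was not called. With TTNPB the values of 4.63, 4.24 and 4.42 also lay above the controls, by 0.37 (0.06 to 0.68, adjusted p = 0.301 by limma). With GW1516 they were 4.30, 4.38 and 3.87, a difference of 0.12, or 0.28 without replicate 3, the array that lay below the controls. In full medium Zeb1 was at 0.75 to 0.91 in the controls and at 0.84 to 1.03 with palmitate, just above background.

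Snai2 and Twist1, which like Snai1 are DNA-binding repressors of Cdh1, were at or below background. Snai2 lay between 0.76 and 1.16 in charcoal serum and between 0.24 and 0.43 in full medium, under background in every group. Its TTNPB difference of 0.27 (0.12 to 0.43, adjusted p = 0.0895 by limma) is thus a difference between dim values. Twist1 lay between 0.79 and 1.58 in charcoal serum, with a group mean above background only for TTNPB (1.42 ± 0.25, SD, n = 3, against a background of 1.29).

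Cdh1 (chr8:106603350-106670247), which encodes E-cadherin and is a gene that SNAI1 is known to repress, was not lower with retinoic acid. It was at 4.95, 4.87 and 4.82 in the controls and at 5.57, 5.53 and 5.29 with retinoic acid. Every retinoic acid array was above every control array. The difference was 0.58 (95% interval 0.12 to 1.04) with an adjusted p of 0.159 by limma, so neither a rise nor a fall was called, and the interval lies above 0. With TTNPB the values were 5.19, 4.87 and 5.66, a difference of 0.36 (-0.10 to 0.82) with groups that overlap. With GW1516 they were 5.42, 5.27 and 4.35, with replicates 1 and 2 above and replicate 3 below all controls. The difference there was 0.14 with all arrays and 0.47 without replicate 3. In full medium Cdh1 was at 3.44, 3.46 and 3.25 in the controls and at 3.27, 3.20 and 3.17 with palmitate, a difference of -0.17 (-0.63 to 0.29). A further probe set of Cdh1 was below background in every group.

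Vim (chr2:13574311-13582826), the intermediate filament gene used as a mesenchymal marker, had the brightest probe set of the members, though levels of different probe sets cannot be ranked. It was at 10.61, 10.59 and 10.59 in the controls and at 10.67, 10.65 and 10.55 with retinoic acid, groups that overlap. The difference of 0.03 had a 95% interval of -0.09 to 0.14, so for this probe set a change of more than 0.14 in either direction lay outside it. With TTNPB the difference was -0.04 (-0.15 to 0.07), with GW1516 0.08 (-0.03 to 0.19; 0.02 without replicate 3) and with palmitate -0.09 (-0.20 to 0.03). A further Vim probe set, also above background, was more variable over the arrays. It was at 7.24, 7.41 and 7.13 in the controls and at 7.08, 6.99 and 6.75 with retinoic acid. There all retinoic acid arrays lay below all controls. The mean difference was -0.32 (SE 0.41), and the adjusted p over all probe sets was 0.792 by limma. The mean of both probe sets was -0.15 with retinoic acid, so the sign of the Vim difference turned with the choice of probe set, without a call in either. With GW1516 the further probe set was at 6.90, 7.42 and 4.80, with replicate 3 far below the others. Cdh2, N-cadherin, was below background in all 6 groups on both of its probe sets, at 0.59 to 0.92 in charcoal serum and 0.12 to 0.34 in full medium on the brighter probe set.

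**Figure D2:**
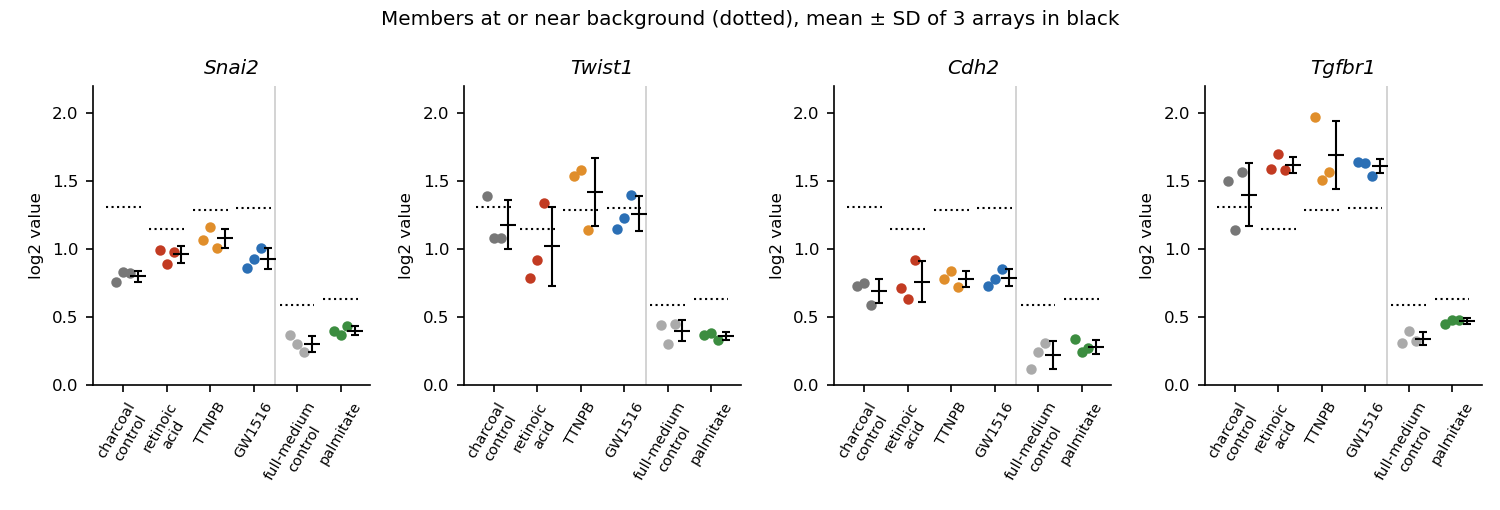
Log2 level (vertical axis) of the members at or near background, by group (horizontal axis), with 1 point per array, a bar at the group mean and the background level of each group. Snai2 and Cdh2 lie under the background level in every group, and Twist1 passes it only with TTNPB (mean 1.42).

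Tgfb1 (chr7:25687002-25705077), the gene of the ligand TGF-β1, was at 6.67, 6.40 and 6.66 in the controls and at 6.20, 6.28 and 6.19 with retinoic acid. All retinoic acid arrays were below all controls. The difference of -0.35 (95% interval -0.78 to 0.08) had an adjusted p of 0.44 by limma and was not called. With TTNPB it was at 6.49, 6.28 and 6.40, and with GW1516 at 6.58, 6.41 and 5.40. The GW1516 difference of -0.45 (adjusted p = 0.302 by limma) rests on replicate 3 and was -0.08 without it. In full medium Tgfb1 was at 6.33, 6.42 and 6.33, and with palmitate at 6.71, 6.31 and 6.67, a difference of 0.20 (0.33 without palmitate replicate 2) that was not called. Tgfbr1, the type I receptor kinase, was just above background in charcoal serum (1.14 to 1.97 on single arrays) and below it in full medium (0.31 to 0.48). Its differences from the controls were 0.22 with retinoic acid, 0.28 with TTNPB and 0.20 with GW1516, and none was called.

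Counted over the set, 6 members lay above background in the charcoal controls, 6 with retinoic acid, 7 with TTNPB and 6 with GW1516, and 5 in either full-medium group. The arrays of a ligand and its control did not overlap for 6 of 9 members with retinoic acid (5 higher, 1 lower), against 24.1% of all genes. The counts were 4 of 9 with TTNPB (17.9% of all genes), 2 of 9 with GW1516 (16.3%) and 2 of 9 with palmitate (15.2%). These counts include genes under background, Snai2 with retinoic acid, TTNPB and GW1516, and Tgfbr1 with palmitate. The median difference of the 9 members was 0.15 with retinoic acid, 0.27 with TTNPB, 0.10 with GW1516 and 0.10 with palmitate. The medians of all genes were -0.03, 0, -0.01 and 0. Each member median is the value of a gene under background in every group, Cdh2 for GW1516 and Snai2 for the other ligands. The medians thus do not describe the measurable members. With retinoic acid, the 6 members above background had differences from -0.35 (Tgfb1) to 0.95 (Snai1). In a fit on only the 6 arrays of the retinoic acid comparison, 4 of 9 members were called (Snai1, Zeb1, Cdh1 and Tgfb1), where 8.35% of all genes were. Array weights, and leaving out GW1516 replicate 3 with palmitate replicate 2, also gave 4, at 9.08% and 9.92% of all genes. Snai1 and Zeb1 were called together, with 2 of 9, without a variance trend (5.78% of all genes), with dim genes left out (12.1%) and with the mean of all probe sets (5.1%).

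**Figure D3:**
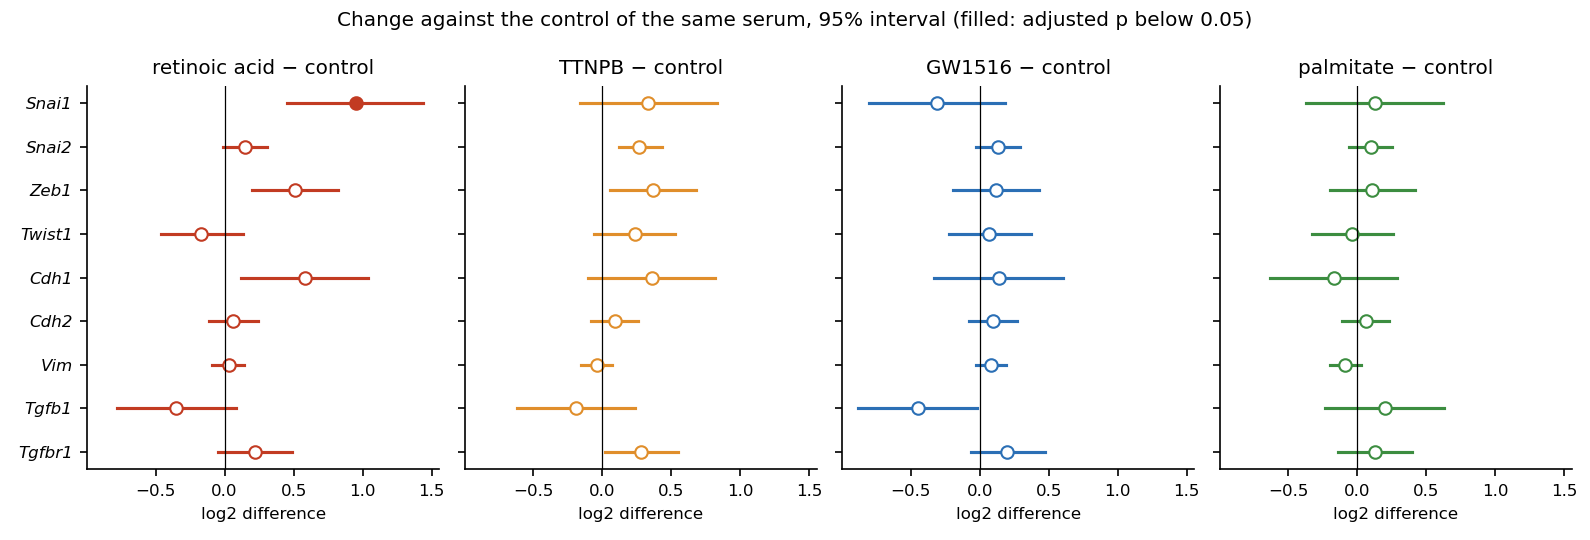
Log2 difference from the same-serum control (horizontal axis) of each member (vertical axis) for each ligand, with the 95% interval as a line and filled points where the adjusted p was below 0.05. Snai1 with retinoic acid, at 0.95, is the only filled point.

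The ligands were then compared directly, in 3 pairs at the same dose, time and serum. Retinoic acid and TTNPB both carry a carboxylic acid, and in TTNPB aromatic rings replace much of the flexible polyene chain of retinoic acid. Snai1 was 0.61 higher with retinoic acid than with TTNPB (95% interval 0.12 to 1.10), and the arrays of the groups did not overlap. The adjusted p was 0.53 over the genes by limma and 0.442 over genes and the 3 pairs, so the difference was not called. It was called on the 6 arrays of this pair alone (adjusted p = 0.028, with 1.12% of all genes called) and without GW1516 replicate 3 and palmitate replicate 2 (0.0308, with 0.803%). Twist1 was 0.40 lower with retinoic acid (-0.70 to -0.11 on the log2 scale, adjusted p = 0.458 by limma), near background. Cdh1 differed by 0.22 (-0.24 to 0.68), Zeb1 by 0.14 (-0.17 to 0.45), Tgfb1 by -0.16 (-0.60 to 0.27) and Vim by 0.07 (-0.05 to 0.18), intervals that include 0 without showing that the compounds act alike. Of the 9 members 0 were called, against 0.153% of all genes. At an unadjusted p below 0.05 by limma there were 2, Twist1 and Snai1. By p they ranked 497 and 755 of 22180 genes, so at least 755 genes passed that cut.

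Retinoic acid and the PPARδ agonist GW1516 differed in Snai1. Its level was 1.25 higher with retinoic acid (0.76 to 1.75, 2.38-fold), with an adjusted p of 0.0199 by limma and 0.0314 over genes and the 3 pairs. All retinoic acid arrays lay above all GW1516 arrays. This was 1 of 9 members, against 0.352% of all genes. Without GW1516 replicate 3 the difference was 1.04 with an adjusted p of 0.0503, and the call was also lost without any 1 of the retinoic acid arrays (0.062 to 0.135) and in a fit on the 6 arrays alone (0.288). Snai1 was 0.64 higher with TTNPB than with GW1516 (0.15 to 1.14, adjusted p = 0.359 by limma), and 0.42 higher without GW1516 replicate 3 (0.499), which was not called in either fit. Here 0 of 9 members were called, against 0.0676% of all genes. At an unadjusted p below 0.05 there were 2, Snai1 and Vim. By p they ranked 831 and 1983 of 22180 genes, so at least 1983 genes passed that cut.

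**Figure D4:**
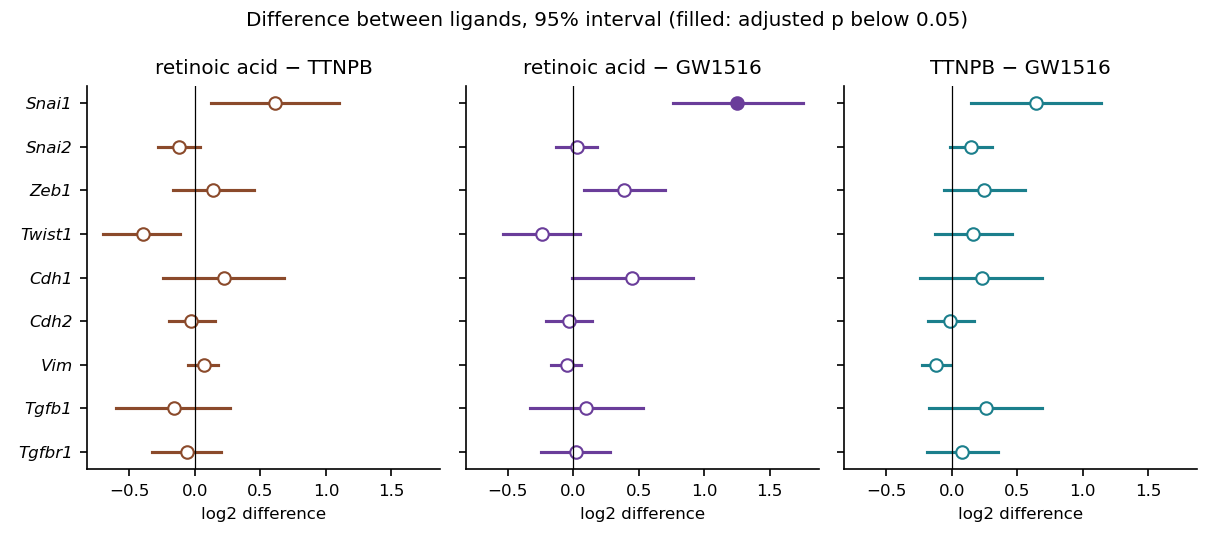
Log2 difference between a pair of ligands (horizontal axis) for each member (vertical axis), in 3 panels, with the 95% interval as a line and filled points where the adjusted p over all genes was below 0.05. The filled point is Snai1 in retinoic acid minus GW1516, at 1.25.

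The effect of palmitate in full medium was set against that of retinoic acid in charcoal serum as a difference of differences. For Snai1 it was -0.82 (95% interval -1.51 to -0.12, adjusted p = 0.274 by limma), and -0.47 without palmitate replicate 2 (0.582). It was for Cdh1 -0.76 (-1.41 to -0.10, 0.28) and for Tgfb1 0.55 (-0.06 to 1.16, 0.47). None of the 9 members was called, against 2.56% of all genes. At an unadjusted p below 0.05 there were 2, Snai1 and Cdh1. By p they ranked 1960 and 2015 of 22180 genes, so at least 2015 genes passed that cut. Serum, dose and ligand all differ here and cannot be told apart. Of 127 genes in the pathway lists described next, 15 were called in this difference.

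The genes whose pattern over the 12 charcoal-serum arrays was most like that of Snai1, among 12916 genes above background in at least 1 group, were Rflna (Pearson r = 0.969), Slc29a3 (0.963), Eefsec (0.952), Arg1 (0.939) and Gosr1 (0.935). Among the members, Zeb1 (0.752) and Cdh1 (0.724) were most like it, Tgfb1 was at 0.187 and Vim at -0.362. These values are descriptions. The arrays fall into 4 groups of 3 and include GW1516 replicate 3, which is shared by every gene.

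Genes around the members were described from 6 lists, by counts. Of all genes, 3.82% rose and 1.47% fell with retinoic acid, 0.618% and 0.64% with TTNPB, 1.89% and 0.681% with GW1516, and 0.144% and 0.537% with palmitate. Those shares include dim genes, as only 49.7% of all genes lay above background in the charcoal controls. In the order of the lists below, 8 of 14, 14 of 25, 10 of 25, 18 of 24, 13 of 15 and 21 of 24 did. With dim genes left out, 12.1% of genes were called with retinoic acid, so list counts are not a measure of enrichment. Among 14 other transcription factors of the epithelial-mesenchymal switch, 2 rose and 2 fell with retinoic acid. Tcf4, the E-protein E2-2, rose by 0.70 (adjusted p = 0.0125 by limma) and Sox4 by 0.58 (0.0274). Tcf3, the E-protein E2A, which can repress Cdh1, fell by 0.44 (0.0383), and Id2, an inhibitor of such factors, fell by 0.30 (0.0367). With TTNPB only Id2 was called, falling by 0.70 (0.000138). None of the 14 was called with GW1516 or palmitate.

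Of 25 epithelial junction and keratin genes, 3 rose and 1 fell with retinoic acid. Cldn3, a tight junction claudin, was at 8.43 ± 0.03 in the controls and 9.18 ± 0.04 with retinoic acid (SD, n = 3 each), a rise of 0.76 (adjusted p = 1.08e-05 by limma). Elf3, an epithelial ETS factor that is dim here, rose by 0.57 (0.0396), and Tjp1, the junction scaffold ZO-1, by 0.42 (0.0447). Esrp2, an epithelial splicing regulator, fell by 0.66 (0.00782). Cldn3 also rose with TTNPB (0.62, adjusted p = 0.000243 by limma) and with palmitate (0.41, 0.0123), and Tjp1 with GW1516 (0.56, 0.0161). Among the luminal markers, Erbb2 fell by 0.43 with retinoic acid and Erbb3 by 0.72 with palmitate.

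Of 25 mesenchymal and matrix genes, only Postn, the matrix protein periostin, was called in charcoal serum. It was at 4.74 ± 0.62 in the controls and rose by 1.69 with retinoic acid (adjusted p = 0.000129 by limma), by 1.12 with TTNPB (0.0128) and by 1.55 with GW1516 (0.00116). The 3 control arrays ranged from 4.12 to 5.36, and all ligand arrays were above them. No gene of this list was called with palmitate. Of 9 fibroblast markers 0 were called with retinoic acid, and their median difference was -0.05 against -0.03 over all genes. Their summed linear level was 42.3 to 54.1 on the control arrays and 55.5 to 78 with retinoic acid, and overlapped the controls with TTNPB (46.7 to 64.7) and GW1516 (48.8 to 63.4). Pdgfra, a growth factor receptor gene, made up most of that sum and was at 4.88 ± 0.30 in the controls and 5.65 ± 0.36 with retinoic acid (SD, n = 3 each; adjusted p = 0.168 by limma). Dcn, Lum, Thy1, Fap and Col1a1 were under background in both groups. Col1a2 (1.14 in the controls, 1.21 with retinoic acid) and Col3a1 (1.26 and 1.28) passed it only with retinoic acid. Background was lower there (1.15 against 1.31 in the controls).

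Of 24 TGF-β family ligands, receptors and SMADs, 4 rose and 1 fell with retinoic acid, and the list median was 0.15 against -0.03 over all genes. Smad3, which carries the TGF-β signal to the nucleus, rose by 0.90 (adjusted p = 0.00556 by limma), from 6.42 ± 0.32 to 7.32 ± 0.07 (SD, n = 3 each). The BMP receptor genes Bmpr2 and Bmpr1a rose by 0.72 (0.0331) and 0.61 (0.00338), and the ligand gene Tgfb3 by 0.39 (0.000868). Eng, the co-receptor endoglin, fell by 0.52 (0.0205). With TTNPB Tgfb3 rose by 0.34 and Eng fell by 0.53, and with GW1516 Bmpr1a rose by 0.60 and Tgfb3 by 0.30. With palmitate Tgfb3 fell by 0.34 (0.0105) and Tgfbr3, the co-receptor betaglycan, by 0.58 (0.00365).

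Of 15 genes known to respond to TGF-β, 4 rose and 1 fell with retinoic acid. Bhlhe40, a transcriptional repressor, rose by 0.99 (adjusted p = 2.06e-06 by limma), Skil, a SMAD inhibitor, by 0.94 (0.00821), Cdkn2b, a cell cycle inhibitor, by 0.46 (0.0265) and Klf10 by 0.42 (0.0212). Cdkn1a, the inhibitor p21, fell by 0.29 (0.0384). With TTNPB Bhlhe40 rose by 0.63, and with GW1516 Klf10 rose by 0.61 and Bhlhe40 by 0.52. None was called with palmitate. Among 24 regulators and partners of the SNAI1 protein, only Csnk1a1, a casein kinase gene, was called, with a rise of 0.96 for retinoic acid (adjusted p = 4.88e-05 by limma), 0.58 for TTNPB and 0.52 for GW1516.

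Not all of these calls were stable. For retinoic acid 8 of 21 named list and marker genes kept their call under every alternative tried (Cldn3, Esrp2, Postn, Smad3, Bmpr1a, Tgfb3, Bhlhe40 and Csnk1a1), for TTNPB 3 of 7 (Id2, Cldn3 and Bhlhe40), for GW1516 0 of 7 and for palmitate 0 of 4.

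**Figure D5:**
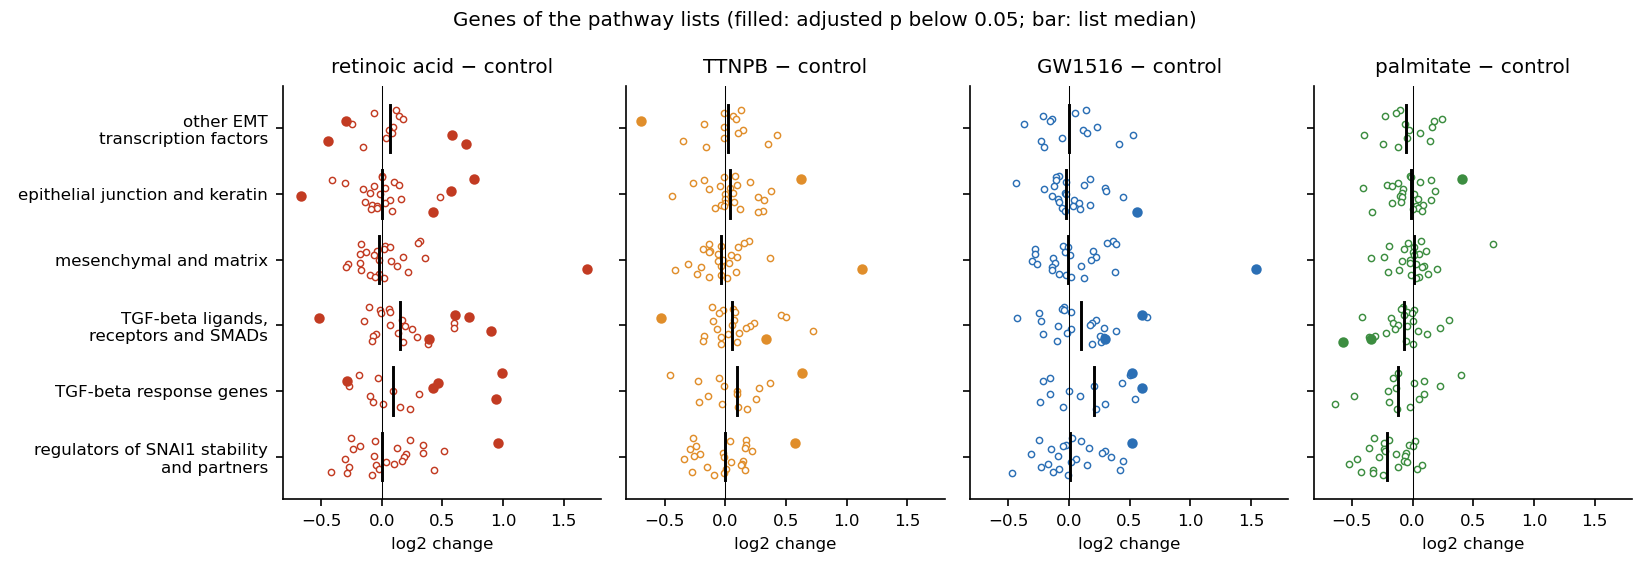
Log2 difference from the same-serum control (horizontal axis) of every gene in 6 pathway lists (vertical axis), in 1 panel per ligand, with filled points where the adjusted p was below 0.05 and a bar at the list median. Postn, in the mesenchymal and matrix list, is the filled point farthest to the right with retinoic acid (1.69), TTNPB (1.12) and GW1516 (1.55).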

How the data were processed

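The values analysed are the deposited log2 expression values of 41345 probe sets on 18 arrays, as the authors processed them. The submitters' processing notes name Partek. Its version and the methods of background correction, normalization and summary are, in the sources used here, not given. The log2 scale was read from the values. RNA was extracted with Qiazol and RNeasy columns and labelled as biotinylated cRNA, per the labels' protocols.

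Probe sets with 1 symbol (23521) were kept, those with several (1814) or none (16010) were left out, and symbols of 23328 were updated by Entrez number to GRCm38.p6. The brightest probe set stood for the 1082 genes with several. No gene was left out as dim. Group means were fitted with limma 3.58.1 in R 4.3.3 on all 18 arrays, with variances that follow a trend with expression and 12 residual degrees of freedom. P-values were 2-sided. A fold is 2 to the power of the log2 difference.

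All members are named, as are list genes past the threshold (up to 6 per list and comparison). The members, lists and the background level were chosen with earlier results of these data known. Lists had 14 of 15 (other transcription factors), 25 of 25 and 25 of 25 genes measured. The remaining lists had 24 of 24, 15 of 16 (response genes) and 24 of 26 (SNAI1 regulators). In the mesenchymal and matrix list, Loxl3 stood for the listed Loxl2 through a synonym match, so Loxl2 itself was not measured. Alternatives were fits on fewer arrays, a replicate block, other variance models, quantile normalization, median centring, array weights, dim genes left out, the mean of all probe sets and each array left out. Leaving out GW1516 replicate 3 together with palmitate replicate 2 was chosen after seeing the data. At most 0.469% of probe sets in the charcoal groups and 2.55% in the full-medium groups were identical (within 1e-06) in a pair of replicates. The number of arrays limits the precision. The code was tested on simulated data.

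Replicate numbers recur across groups, but same-numbered arrays did not deviate together. The correlation of their deviations lay between -0.28 and 0.212, and the numbers paired the arrays in 0 of 7 comparisons.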

Additional observations from a re-analysis of the deposited data

Results flagged for a closer look

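The following values are tests of a difference between ligands by the limma fit over all genes. Snai1 was 1.25 higher with retinoic acid than with GW1516 (adjusted p = 0.0199). In the same comparison Cldn3 was 0.58 higher (0.000742) and Bhlhe40 0.47 higher (0.0175). Between TTNPB and GW1516, Cldn3 was 0.45 higher with TTNPB (0.023) and Id2 differed by -0.54 (0.0131), with the lower level under TTNPB.

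The effect of palmitate minus that of retinoic acid passed the threshold for 15 of 127 pathway list genes, against 2.56% of all genes. Most of the 15 were also called with retinoic acid, whose effect is subtracted here, so the count is no independent result. For the TGF-β family genes it was -1.14 for Bmpr2 (adjusted p = 0.0283 by limma), -0.68 for Bmpr1a (0.0279), -0.73 for Tgfb3 (0.000163), -0.65 for the ligand gene Tgfb2 (0.0227) and -0.76 for Tgfbr3 (0.00274). For TGF-β response genes it was -1.11 for Bhlhe40 (9.34e-05) and -0.56 for Klf10 (0.0485). Among the transcription factors it was -0.98 for Sox4 (0.0156), -0.94 for Tcf4 (0.0271) and 0.47 for Id2 (0.0299). It was -1.49 for Postn (0.0124), -0.75 for Tjp1 (0.0191) and -1.19 for Csnk1a1 (0.000448). Among partners of SNAI1 it was -0.76 for Rcor1 (0.0242), a corepressor gene, and -0.48 for Ezh2 (0.0417), a histone methyltransferase gene. Tgfb3 is the gene of these that rose with retinoic acid (0.39) and fell with palmitate (-0.34), each past the threshold. Dose and serum differ between these effects and cannot be told apart from the ligand. The arrays of the 2 sera may also have been scaled apart.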

How the results depend on the processing

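Of 1253 differences of members under the alternatives, 1223 kept their side of the threshold, of which 50, all uncalled, changed sign, 10 lost and 20 gained a call, and 0 called differences turned. With each array left out, Snai1 with retinoic acid against the control ranged from 0.88 to 1.02, and against GW1516 from 1.04 to 1.43. The latter was 1.25 on the 6 arrays alone (adjusted p = 0.288 by limma) and 1.30 with centred arrays (0.0652), not called in either. Snai1 against TTNPB was called on the 6 arrays alone (0.61), and ranged from 0.53 to 0.68 with arrays left out, called only without GW1516 replicate 3 and palmitate replicate 2 together (0.61).

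Members called for retinoic acid were 4 on the 6 arrays alone and with array weights, and 2 without the trend, with dim genes left out or with the mean of probe sets. They were 0 to 1 with each array left out, and 4 without GW1516 replicate 3 and palmitate replicate 2 together. Shares of all genes in the settings that gave 2 or 4 are given with the counts over the set. For TTNPB 1 was called with array weights (Snai2, adjusted p = 0.0426 by limma), 0 with each array left out and 1 without those 2 arrays together. For retinoic acid against TTNPB 1 was called on the 6 arrays alone (1.12% of all genes), 0 with each array left out and 1 without those 2 arrays together (0.803%). For retinoic acid against GW1516 0 were called on the 6 arrays alone (1 at an unadjusted p below 0.05) and 0 with centred arrays (2 at an unadjusted p below 0.05). With arrays left out 0 to 1 were called. The unadjusted counts have no share of all genes beside them and are not a measure of enrichment. For the palmitate effect minus the retinoic acid effect, 1 was called on the arrays compared alone (Cdh1) and 2 with array weights (Cdh1 and Tgfb1). There 0 were called with each array left out and 1 without those 2 arrays together. In fits that left out no array by name, all genes called reached 622 of 22180 for TTNPB (279 in the main fit). They reached 1449 for the difference of effects (568). These member counts are thus no result about the members as a set.

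With the replicate number as a block, Snai1 with retinoic acid was 0.95 higher (adjusted p = 0.0216 by limma) and no member's call changed. The block gave 149 genes for TTNPB (279 without it), 312 for GW1516 (570), 85 for palmitate (151), 18 for retinoic acid against TTNPB (34), 31 against GW1516 (78), 5 for TTNPB against GW1516 (15) and 354 for the palmitate effect minus the retinoic acid effect (568).

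Counts of all genes called moved widely. For retinoic acid (1174) they ran from 583 with 1 array left out to 2201 without GW1516 replicate 3 and palmitate replicate 2, for TTNPB from 101 with centred arrays to 972 without those 2 arrays, for GW1516 from 3 on the 6 arrays alone to 1122 with array weights, and for palmitate from 1 to 661 in the same settings. For retinoic acid against TTNPB they ran from 9 with arrays left out to 249 on the 6 arrays alone, against GW1516 from 2 on the 6 arrays alone to 195 with array weights, and for TTNPB against GW1516 from 0 (1114 at an unadjusted p below 0.05 by limma) to 66 in the same settings. For the palmitate effect minus the retinoic acid effect they ran from 306 with arrays left out to 1449 with array weights. The cause was not tested. Signal limits Snai2, Cdh2 and Twist1, which lay at or near background.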

Other observations

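Cdh5, the VE-cadherin gene of endothelial adhesion, was bright in these carcinoma cells while the other 4 endothelial markers lay under background in all groups. Its log2 level was 8.90 ± 0.09 in the charcoal controls, 8.73 ± 0.05 with retinoic acid, and 8.44 ± 0.05 with TTNPB (SD, n = 3 each). With GW1516 it was 8.73, 8.67 and 7.24, where the low value is replicate 3, the array that stood apart. In full medium it was 7.77 ± 0.10 in the controls and 7.39, 6.88 and 7.59 with palmitate, where the lowest is replicate 2, which also stood apart. The Cdh5 difference from the control was -0.17 with retinoic acid (adjusted p = 0.83 by limma) and -0.46 with TTNPB (0.58). With GW1516 the difference was -0.69 (0.192) and with palmitate -0.48 (0.823), and none was called. Cdh5 was chosen after its values were seen.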
